A study of Sus scrofa with 8 samples.

Results

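TBX3, NR5A2, TFCP2L1 and ZFP42 are transcription factors best known from the naive state of pluripotency, and the acetylation of histone H3 at lysine 27 (H3K27ac) around them was compared in 2 pig cell types. The 4 genes were chosen by name, as 4 of the 16298 protein-coding pig genes analysed, and each locus was taken as the gene body with 10 kb on either side. The mark was profiled by chromatin immunoprecipitation and sequencing (ChIP-seq). The pgEpiSC libraries came from pig pre-gastrulation epiblast stem cells, a culture labelled as taken from the epiblast of the embryo at day 10, and the pEF libraries from porcine embryonic fibroblasts of day 30, with no treatment or genetic change named for either. There were 2 H3K27ac libraries of each type, pgEpiSC 1 and pgEpiSC 4 and pEF 1 and pEF 2, and an input library for each of the 4. The comparison asks how active chromatin at these loci differs between a pluripotent stem cell and a fibroblast. The labels do not say whether the libraries of a type came from separate lines, animals or cultures, so an error or p-value here measures only the spread between these libraries, with n = 2 for each SD.

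Pluripotent cells pass through a naive state, typical of the early inner cell mass, and later formative and primed states, typical of the epiblast before and during gastrulation. In mouse embryonic stem cells, TBX3, a T-box factor that mostly represses transcription, and TFCP2L1, a factor of the CP2 and grainyhead family, support self-renewal downstream of LIF and other signals. NR5A2, also called LRH-1, is an orphan nuclear receptor that can sustain expression of the OCT4 gene POU5F1. ZFP42, also called REX1, is a zinc finger protein related to YY1 and a widely used reporter of the naive state. TBX3 also acts in limb, heart and mammary development and NR5A2 in liver, gut and gonad, so neither is particular to pluripotent cells. H3K27ac marks active promoters and enhancers.

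For each H3K27ac library the data were a list of islands, which are stretches where ChIP reads cluster above background, each with its ChIP reads, its input reads and the authors' fold of ChIP over scaled input. The lists held 64620 and 74208 islands in pgEpiSC 1 and 4, with 29679982 and 38230571 ChIP reads inside them, and 62261 and 57790 islands in pEF 1 and 2, with 42444995 and 46383051 reads. Islands covered 408 and 414 Mb of the genome in pgEpiSC but 273 and 275 Mb in pEF. Their median fold over input was 1.80 and 1.67 in pgEpiSC and 3.47 and 3.46 in pEF, and their median length 4800 and 4200 bp against 3000 and 3200 bp, so pgEpiSC islands as a whole were longer and less enriched. The part of this difference in each result below was not tested, and the 4 genes and the gene lists are therefore also given with only islands enriched at least 2-fold. By the limma test on acetylated length, 31.9% of all genes had more length in pgEpiSC and 10.9% had more in pEF, shares that became 7.06% and 16.5% at 2-fold enrichment, and the list counts are to be read against these. Epiblast markers went with the labels: summed over POU5F1, SOX2, NANOG, LIN28A, SALL4 and OTX2, islands covered 150 and 140 kb in the pgEpiSC libraries and 16.4 and 13.6 kb in pEF. By limma 5 of 6 were called higher in pgEpiSC, and 4 at 2-fold enrichment. NANOG did not pass in either case (log2 fold changes of 1.097 and -1.23), and SOX2 did not pass at 2-fold enrichment (3.46, adjusted p = 0.0860). Summed over 6 fibroblast markers, islands covered 62.2 and 29.6 kb in pgEpiSC, compared with 249 and 248 kb in pEF. Of these, 4 were called higher in pEF and 5 at 2-fold enrichment. PRRX1 passed in neither case and THY1 only at 2-fold enrichment (by limma on all islands, adjusted p = 0.0956 and 0.337). COL1A2, COL3A1 and TWIST1 had no island in either pgEpiSC library. Of 6 hypoblast markers, 2 were higher in pgEpiSC and 1 in pEF, with SOX17 at 0 in all 4 libraries, and of 5 trophectoderm markers 0 were higher in pgEpiSC and 1 in pEF, with CDX2 at 0 in all 4. At 2-fold enrichment these counts turned to 0 and 2 of the hypoblast markers, where GATA4 went from a log2 fold change of 1.77 to -1.53, and to 0 and 3 of the trophectoderm markers. In a whole culture, fewer cells carrying the mark and less mark per cell cannot be told apart.

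**Figure D1:**
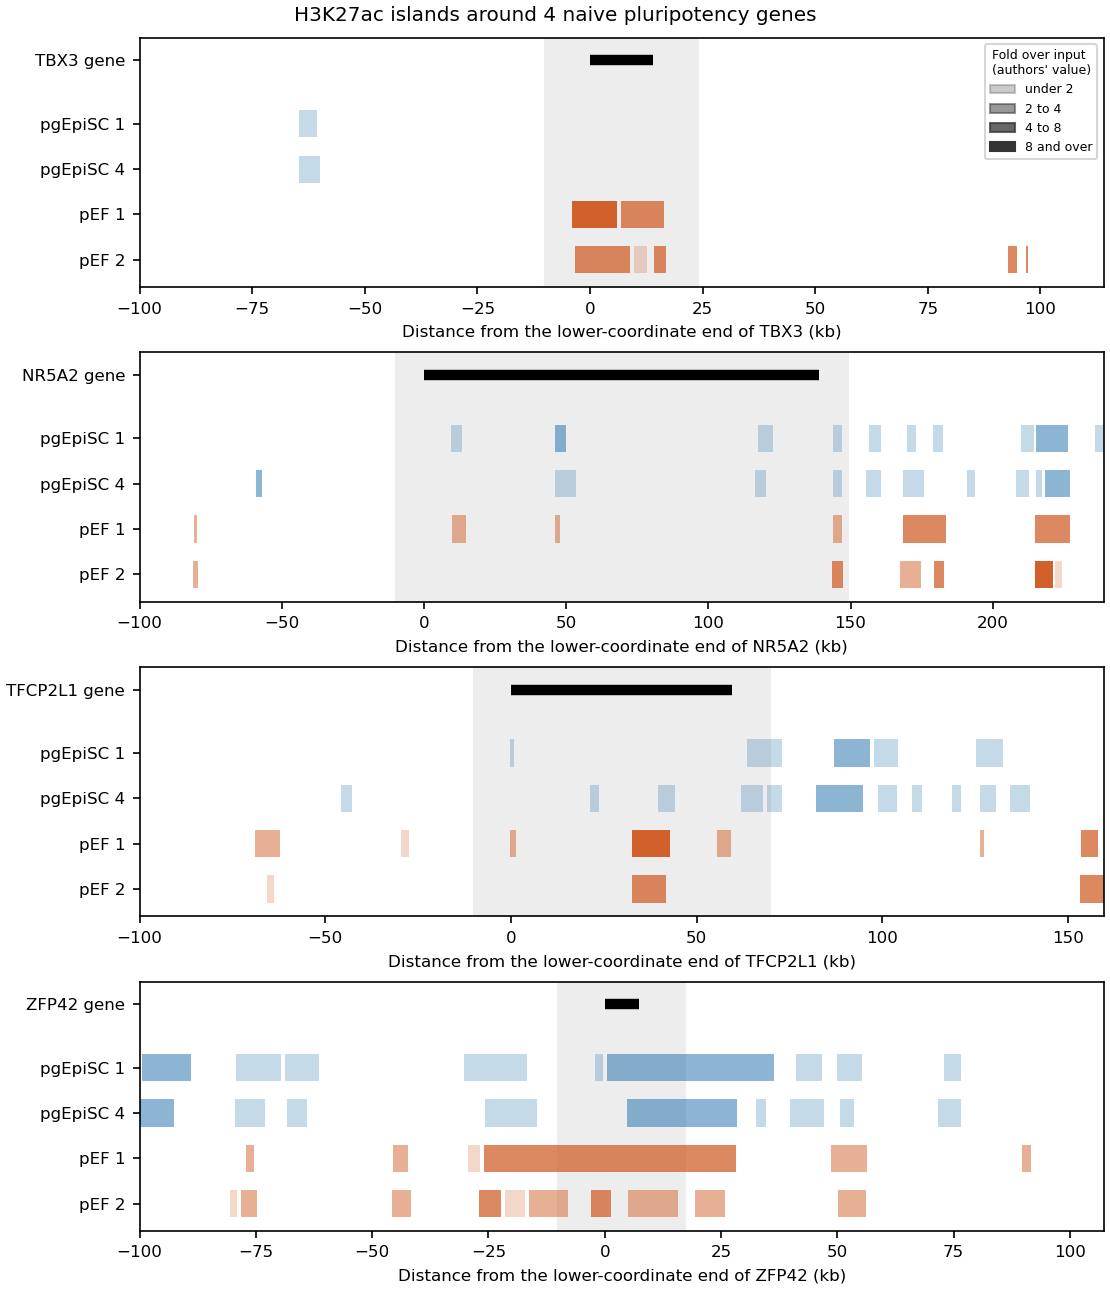
Islands of the 4 libraries (rows) around each gene, drawn by distance in kb from the gene's lower-coordinate end. Grey shading is the gene body with 10 kb either side, and darker bars have a higher fold of ChIP over input; TBX3 has islands in the shaded window in both pEF libraries and in neither pgEpiSC library, and the other 3 windows hold islands in all 4.

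TBX3 was acetylated in the fibroblasts and carried no island in the epiblast stem cells. Acetylated length, the sum in kb of the island stretches over a gene and its 10 kb flanks (its window), was 0 kb in pgEpiSC 1, 0 kb in pgEpiSC 4, 19.6 kb in pEF 1 and 18 kb in pEF 2. The cell types did not overlap, and the pEF libraries lay close together. In a test by limma on log2(kb + 1), where 1 kb is a pseudocount, the log2 fold change of pgEpiSC over pEF was -4.31 ± 0.15 (SE, adjusted p = 0.0029), past the threshold of 0.05 used throughout for a call, and 0.38% of all genes had a lower one. A fold against 0 depends on the pseudocount: with 0.2 kb in place of 1 kb it was -6.57. No island is not the absence of reads, since the lists do not give reads outside islands and their smallest islands held 41 ChIP reads in pgEpiSC 1 and 45 in pgEpiSC 4.

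The acetylation at TBX3 spread over the gene as a whole. Islands covered 94.3% of the gene body in pEF 1 and 84.6% in pEF 2, and 16.8 kb of the window lay in islands of both libraries. The merged region ran over chr14:37578801-37599600, from 3.9 kb below the lower-coordinate end of the gene to 16.9 kb above that end. The gene table used here gives no strand, so the end that holds the transcription start is not named. In pEF 1 the island over the lower end was 10 kb long and held 3604 ChIP and 372 input reads, a 12.6-fold enrichment that only 3.77% of islands in that library's list exceeded. In pEF 2 the corresponding island was 12.2 kb long with 2514 ChIP reads and was enriched 6.19-fold, below 21.0% of its list. The rest of the gene was less enriched, at 4.44-fold in pEF 1 and at 1.74-fold over 3.0 kb in pEF 2. In pEF 1 this island was 9.6 kb long and ran past the higher end. A separate 2.8 kb island of pEF 2, at 5.38-fold, lay just above that end. Both pEF libraries therefore placed the strongest stretch at the same end of the gene, at unequal heights. The nearest pgEpiSC islands lay 60.7 kb and 59.9 kb below the lower end, at 1.37-fold and 1.28-fold, where neither pEF library had an island.

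TBX5, a T-box gene of heart and forelimb, is the nearest gene above TBX3, at a gap of 175 kb, and was also higher in pEF. It had 3.6 kb in each pgEpiSC library against 20.2 and 22.6 kb in pEF (a log2 fold change of -2.28, adjusted p = 0.00571). RBM19, a ribosome biogenesis gene 485 kb above TBX3, went the other way, with 38.5 ± 14.9 kb in pgEpiSC, compared with 5.80 ± 0.849 kb in pEF (adjusted p = 0.0185). MED13L and C14H12orf49, the nearest genes below, did not pass the test. Of 16 other T-box genes, 3 had more length in pgEpiSC, 4 had more in pEF and 9 were not past the threshold, beside 31.9% and 10.9% of all genes. Their median log2 fold change was 0.11, against 0.46 over all genes, and -0.47 on values centred on the median gene of each library. On these values 3 and 4 of 14 T-box genes were called, beside 22.8% and 24.6% of all genes. TBX18, a regulator of mesenchyme and heart, had 0 kb in both pgEpiSC libraries and 20.8 ± 0.283 kb in pEF. TBX2, the closest relative of TBX3, had 2.4 and 0 kb in pgEpiSC, compared with 25.1 and 24.7 kb in pEF (a log2 fold change of -3.81, adjusted p = 0.0340). TBX15, a skeletal and dermal regulator, had 5.96 ± 0.785 kb against 56.6 ± 0.707 kb (adjusted p = 0.00299). The 3 called in pgEpiSC were EOMES, a gastrulation and trophoblast factor, at 15.3 ± 3.54 kb against 0 kb (a log2 fold change of 4.01, adjusted p = 0.00449), TBX19 at 10.5 ± 1.27 kb against 0 kb and TBX10. With islands enriched at least 2-fold none of these 3 passed and TBX1 joined the pEF calls, beside 7.06% and 16.5% of all genes.

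NR5A2 held more acetylated length in the stem cells, but not beyond the spread between libraries. Its window was covered over 16.4 kb in pgEpiSC 1, 14.4 kb in pgEpiSC 4, 9.8 kb in pEF 1 and 4.0 kb in pEF 2. Both pgEpiSC values lay above both pEF values, and the pEF libraries differed more than 2-fold from each other. The means were 15.4 ± 1.41 kb and 6.90 ± 4.10 kb, and limma gave a log2 fold change of 1.16 ± 0.47 (SE) with an adjusted p of 0.143. The order turned when weak islands were dropped. Islands of at least 2-fold enrichment covered 3.8 kb in pgEpiSC 1, 0 kb in pgEpiSC 4, 9.8 kb in pEF 1 and 4.0 kb in pEF 2, a log2 fold change of -1.75 (adjusted p = 0.342). Summed over the islands in the window, ChIP over scaled input was 1.46-fold and 1.53-fold in pgEpiSC and 3.22-fold and 5.18-fold in pEF. These groups did not overlap, and neither did the median folds of the whole lists, at 1.80 and 1.67 against 3.47 and 3.46. With all islands counted, NR5A2 was thus covered over more length at lower enrichment in pgEpiSC, a length difference that did not pass the test. With only islands of FDR under 1e-10 the lengths overlapped, at 7.0 and 7.2 kb in pgEpiSC and 9.8 and 4.0 kb in pEF. By limma the log2 fold change was then 0.14 (adjusted p = 0.873).

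None of the 4 libraries had an island within 2 kb of either end of NR5A2. The islands fell into 4 regions, 3 of them inside the gene. The first, 9.5 to 14.7 kb from the lower end, had an island in pgEpiSC 1 at 1.02-fold, with an FDR of 0.379, and in pEF 1 at 3.19-fold. The second, 46.1 to 53.3 kb from that end at chr10:22774001-22781200, had islands in pgEpiSC 1 (2.06-fold, 208 ChIP reads), pgEpiSC 4 (1.64-fold, 536 reads) and pEF 1 (2.34-fold, 111 reads). The third, at chr10:22844201-22850600, was seen only in pgEpiSC 1 and 4, at 1.34-fold and 1.43-fold with 252 and 265 reads. In pEF 2 the gene body itself held 0 kb. The last region, at chr10:22871401-22875400 and 4.5 kb above the higher end, was the only one in the window called in all 4 libraries. It held 200, 254, 319 and 595 ChIP reads in pgEpiSC 1, pgEpiSC 4, pEF 1 and pEF 2. In edgeR's quasi-likelihood test on these reads the difference did not pass (a log2 fold change of -0.59, adjusted p = 0.254).

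Outside the window and above the higher end of NR5A2, 2 regions called in all 4 libraries held more reads in pEF. The region at chr10:22895401-22911600, 28.5 to 44.7 kb above that end, had 18.4 and 19 CPM (reads scaled to a common library size by TMM) in pgEpiSC and 69.4 and 43.8 in pEF. Both pEF libraries were above both pgEpiSC libraries (edgeR log2 fold change -1.60, adjusted p = 0.0118). At chr10:22942601-22955000, 75.7 to 88.1 kb above the end, the values were 46.5, 44.9, 84.8 and 85.8 CPM (a log2 fold change of -0.90, adjusted p = 0.0146), and an island of pEF 2 there reached 12.0-fold. Neither call was kept when a pgEpiSC library was left out: the adjusted p was 0.0870 and 0.112 without pgEpiSC 1 and 0.0806 and 0.115 without pgEpiSC 4. The log2 fold changes were then -1.52 and -0.87, and -1.59 and -0.85, close to those with all 4 libraries. Regions of this flank with islands in both pgEpiSC libraries and neither pEF library did not enter that test. They began 16.3 kb (213 and 322 reads) and 69.3 kb (270 and 292 reads) above the higher end. From 50 to 100 kb above it, islands covered 18.7 and 18.4 kb in pgEpiSC and 12.4 and 9.0 kb in pEF. From 10 to 50 kb the types overlapped, at 10.8 and 12.6 kb and at 15.4 and 10.6 kb. ZNF281, a zinc finger gene 167 kb above NR5A2, did not pass (adjusted p = 0.519), and the mitotic kinesin gene KIF14, 256 kb above, was higher in pgEpiSC (28.5 ± 10.1 kb against 3.60 ± 0.0 kb, adjusted p = 0.0140). Below the gene, at over 1 Mb, ATP6V1G3 was higher in pgEpiSC (adjusted p = 0.0236) and PTPRC did not pass.

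Among 10 nuclear receptors related to NR5A2 by family or by binding site, 3 had more length in pgEpiSC, 2 had more in pEF and 5 were not past the threshold, beside 31.9% and 10.9% of all genes. At 2-fold enrichment 1 was called in pgEpiSC and 3 in pEF, beside 7.06% and 16.5% of all genes, whose balance turned the same way. The median log2 fold change was 0.30, and -0.23 on centred values and -0.06 at 2-fold enrichment. NR5A1, the closest relative of NR5A2 and a regulator of steroid-producing tissue, had 10.9 and 20.9 kb in pgEpiSC, 5.2 and 3.2 kb in pEF (adjusted p = 0.0641), and was called higher in pEF with islands enriched at least 2-fold (a log2 fold change of -2.35, adjusted p = 0.0199). NR6A1, the germ cell nuclear factor, had 182 ± 6.22 kb in pgEpiSC, compared with 65.4 ± 1.56 kb in pEF (adjusted p = 0.00659), ESRRG 90.4 ± 7.64 kb and 26.5 ± 5.80 kb, and ESRRA 20.1 ± 0.776 kb and 8 ± 1.98 kb. Of these 3, only ESRRA passed at 2-fold enrichment, where NR6A1 was at 0.32 (adjusted p = 0.451) and ESRRG at -0.01. NR2F1 and NR2F2, the COUP-TF receptors of mesenchyme, had 0 kb in both pgEpiSC libraries and 13.6 ± 1.41 kb and 24.1 ± 0.990 kb in pEF, with an adjusted p of 0.0029 for each. NR0B1, a partner of the NR5A receptors, had no island in any library.

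TFCP2L1 showed no difference in total length and a different layout in each cell type. Its window was covered over 7.21 kb in pgEpiSC 1, 13.4 kb in pgEpiSC 4, 15.8 kb in pEF 1 and 9.2 kb in pEF 2. The ranges overlapped, and the log2 fold change was -0.27 ± 0.45 (SE, adjusted p = 0.676). No region in the window was called in all 4 libraries. Inside the gene, from 32.5 to 42.9 kb above the lower end, pEF 1 had an island of 10.4 kb with 3091 ChIP reads and a 12.7-fold enrichment, exceeded by 3.69% of its list. The island of pEF 2 at the same place was 9.2 kb long, held 1319 reads and was enriched 5.40-fold. There pgEpiSC 4 had a 4.6 kb island with 300 reads at 1.71-fold, and pgEpiSC 1 had none. Above the higher end the order was the opposite: at chr15:30134201-30145200, 2.4 to 13.4 kb above it, pgEpiSC 1 and 4 had 534 and 689 ChIP reads in islands of 1.29-fold to 1.57-fold, and neither pEF library had an island.

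The stretch with islands only in pgEpiSC went on beyond the window. Between 10 and 50 kb above the higher end of TFCP2L1, islands covered 19.8 kb in pgEpiSC 1, 22.8 kb in pgEpiSC 4, while in pEF 1 and pEF 2 they covered 0 kb. The strongest was an island of 9.8 kb in pgEpiSC 1 at 2.96-fold, which 10.8% of that list exceeded, and of 12.8 kb in pgEpiSC 4 at 2.07-fold, with 837 and 1057 ChIP reads. With 50 kb on either side of the gene the lengths were 27 and 39 kb in pgEpiSC, compared with 18 and 9.2 kb in pEF, and the log2 fold change was 1.27 (adjusted p = 0.0607). With only islands enriched at least 2-fold in the 10 kb window they were 0, 0, 15.8 and 9.2 kb, and TFCP2L1 was then called higher in pEF (a log2 fold change of -3.71, adjusted p = 0.0170). At the gene ends, a 1.2 kb island of pgEpiSC 1 (1.46-fold) and a 1.6 kb island of pEF 1 (3.8-fold) lay over the lower end. Within 2 kb of the higher end only pEF 1 had an island, of 3.8 kb inside the gene (2.53-fold). Neither pgEpiSC 4 nor pEF 2 had an island within 2 kb of either end.

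GLI2, a transcription factor of Hedgehog signalling 181 kb above TFCP2L1, was higher in pgEpiSC, with 142 ± 5.66 kb against 52.5 ± 7.21 kb (adjusted p = 0.0110). CLASP1, a microtubule regulator 29.4 kb below, had 74.8 ± 10.5 kb and 45.2 ± 13.0 kb and did not pass (adjusted p = 0.119), nor did NIFK and INHBB. The 4 matched relatives of TFCP2L1, UBP1 and the grainyhead genes GRHL1, GRHL2 and GRHL3, which act in epithelia, were all higher in pgEpiSC, as were 31.9% of all genes. At 2-fold enrichment GRHL2 and GRHL3 were called, beside 7.06% of all genes, and GRHL1 (1.09, adjusted p = 0.234) and UBP1 (0.60, adjusted p = 0.145) were not. GRHL2 had 44.4 and 49.6 kb in pgEpiSC, compared with 0 kb in both pEF libraries (a log2 fold change of 5.58, adjusted p = 0.0029), and GRHL3 had 51.0 and 50.2 kb against 1.2 and 0 kb (adjusted p = 0.00986). UBP1, the relative in the CP2 branch, had 15.8 ± 1.41 kb against 6.40 ± 0.0 kb (a log2 fold change of 1.18, adjusted p = 0.0143), a call that was also lost on centred values (0.55, adjusted p = 0.0816). TFCP2 was not analysed here.

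ZFP42 carried long acetylated stretches in both cell types. Its window was covered over 18.6 kb in pgEpiSC 1, 12.6 kb in pgEpiSC 4, 27.3 kb in pEF 1 and 16.9 kb in pEF 2. The ranges overlapped, pEF 1 filled the whole window, and the log2 fold change was -0.46 ± 0.35 (SE, adjusted p = 0.367). Summed over these islands the enrichment was 2.73-fold and 3.30-fold in pgEpiSC and 5.36-fold and 4.34-fold in pEF. All islands of the window joined into a region of 66.6 kb that reaches beyond it, at chr17:7371401-7438000, with 4022, 4450, 7964 and 4832 ChIP reads for pgEpiSC 1, pgEpiSC 4, pEF 1 and pEF 2. As TMM-scaled CPM these were 218, 194, 298 and 171, so the cell types overlapped (edgeR log2 fold change -0.19, adjusted p = 0.637). This value depended on the pEF libraries: it was 0.17 (adjusted p = 0.465) without pEF 1 and -0.66 (adjusted p = 0.0205) without pEF 2.

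The main islands at ZFP42 overlapped between the types but differed in extent along the locus. In pgEpiSC the main island ran from inside the gene past its higher end, from 0.5 to 36.3 kb above the lower end in pgEpiSC 1 (3132 ChIP reads, 2.81-fold) and from 4.7 to 28.5 kb in pgEpiSC 4 (3376 reads, 3.30-fold). In the lists of these libraries, 12.9% and 4.17% of islands had a higher fold. In pEF 1 an island of 54.2 kb with 7825 reads covered both flanks, from 25.9 kb below the lower end to 28.3 kb above it. In pEF 2 the same stretch was broken into shorter islands, of which that over the lower end was the most enriched, at 7.30-fold over 4.2 kb with 978 reads. At that end pgEpiSC 4 had no island within 2 kb, and pgEpiSC 1 had a 1.8 kb island just below the gene at 1.63-fold beside its main island. Further below the gene pgEpiSC also had islands where pEF had them. They ran from -30.3 to -16.7 kb in pgEpiSC 1 (761 reads, 1.67-fold) and from -25.7 to -14.5 kb in pgEpiSC 4 (902 reads, 1.63-fold). All 4 libraries shared 10.6 kb of the window. Of the window, 0 kb lay in both pgEpiSC libraries and neither pEF library, and 3.67 kb in both pEF libraries and neither pgEpiSC library.

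Further below ZFP42, at chr17:7297401-7312800, from -104.3 to -88.9 kb relative to the lower end, islands held more ChIP reads in pgEpiSC. In this and the other tested regions, reads were counted only inside each library's own islands. Here those islands spanned 14.6 and 11.4 kb in pgEpiSC 1 and 4 and 3.6 and 2.8 kb in pEF 1 and 2. How far the read difference at this region follows island length was not tested. That region had 53.0 and 44.6 CPM in pgEpiSC and 14.3 and 11.6 in pEF, with no overlap (edgeR log2 fold change 1.91, adjusted p = 0.00485), and it passed under each of 10 alternatives. Another 2 regions outside the window were called in all 4 libraries and did not pass. At -80.5 kb the CPM were 26.7 and 19.2 in pgEpiSC and 5.20 and 14.1 in pEF (1.25, adjusted p = 0.116), and at 48.7 kb above the lower end the order was the opposite, at 16.4 and 9.59 and at 31.4 and 20.6 (-0.999, adjusted p = 0.0970). The first of these passed under 3 alternatives and the second under 1. TRIML2, a tripartite motif gene 75.7 kb below ZFP42, was higher in pgEpiSC, with 24.2 and 17.6 kb against 2.15 and 5.55 kb (a log2 fold change of 2.26, adjusted p = 0.0414). Its window holds islands of the regions at -104.3 and -80.5 kb. It also reaches into a region at -68.7 kb with islands only in pgEpiSC 1 and 4 (508 and 447 ChIP reads). The length at TRIML2 thus counts islands described here and is no separate observation. TRIML1, FAT1 and MTNR1A did not pass. YY1, the ubiquitous relative of ZFP42, had 27.5 ± 4.60 kb in pgEpiSC, compared with 11.4 ± 1.70 kb in pEF (a log2 fold change of 1.20, adjusted p = 0.0241), but 0.57 (adjusted p = 0.0937) on centred values and -0.22 with islands enriched at least 2-fold.

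**Figure D2:**
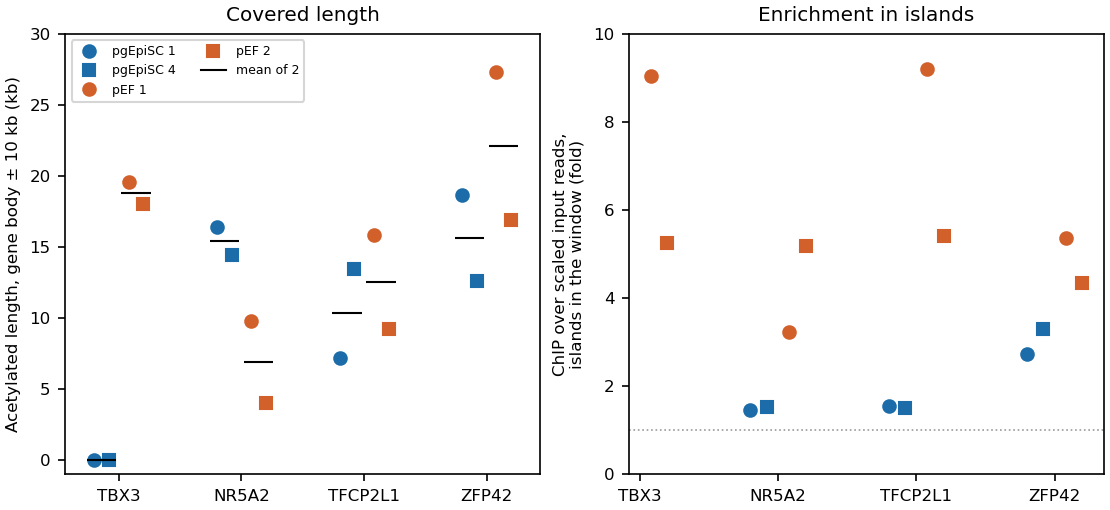
Acetylated length in kb in the gene body with 10 kb either side (left) and the fold of ChIP over scaled input summed over the islands in that window (right), for each gene and library; bars are means of 2 libraries. TBX3 is at 0 kb in both pgEpiSC libraries and has no fold there. At NR5A2, TFCP2L1 and ZFP42 both pEF folds lie above both pgEpiSC folds, as do the median folds of the whole lists.

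Set side by side, TBX3 stood apart from the other 3. It was the only one of the 4 to pass the test on acetylated length, in the direction of pEF, which 10.9% of all genes showed. None was higher in pgEpiSC, which 31.9% of all genes were. An island in both pEF libraries and in neither pgEpiSC library was found at TBX3 and at 2.90% of all genes, while NR5A2, TFCP2L1 and ZFP42 had islands in all 4 libraries, as did 82.1% of genes. The median log2 fold change of the 4 was -0.36, against 0.46 over all genes, which is a description of 4 chosen genes and no test. In none of NR5A2, TFCP2L1 and ZFP42 did the fold over input overlap between the types, at 1.5 ± 0.0495 against 4.2 ± 1.39, 1.52 ± 0.0354 against 7.31 ± 2.69 and 3.01 ± 0.403 against 4.85 ± 0.721. The median folds of the whole lists did not overlap either, at 1.80 and 1.67 in pgEpiSC and 3.47 and 3.46 in pEF. The share of all genes without overlap was not counted, so nothing particular to these genes is read from it. Per length, ZFP42 was the most covered in both types, over 68.2% and 46.3% of its window in pgEpiSC and all and 61.8% of it in pEF. In pEF the order went on with TBX3 (57.5% and 52.8%), TFCP2L1 (19.8% and 11.5%) and NR5A2 (6.16% and 2.52%), and no neighbours in it overlapped. In pgEpiSC, TFCP2L1 (9.05% and 16.8%) and NR5A2 (10.3% and 9.05%) could not be ordered, and TBX3 was last. These shares depend on the window, since the 10 kb flanks weigh more at short genes. Over the gene body alone, pEF coverage was 94.3% and 84.6% at TBX3 and 100% and 47.9% at ZFP42, so these 2 could not be ordered.

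**Figure D3:**
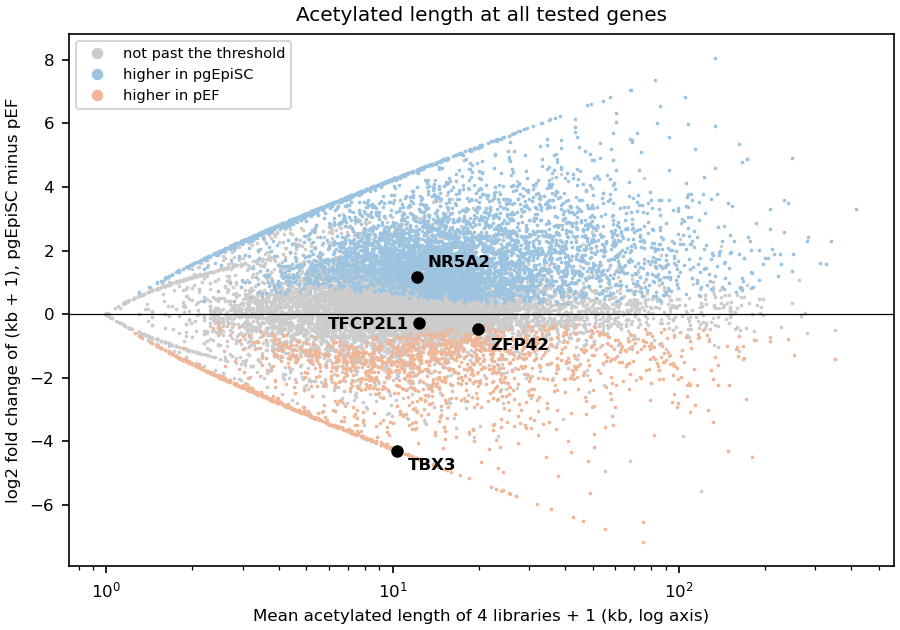
Log2 fold change of acetylated length (pgEpiSC minus pEF) against its mean over the 4 libraries (kb + 1, log axis) for all 16298 genes, with adjusted p under 0.05 in colour and the 4 genes in black. TBX3 sits on the lower edge, formed by genes with no island in pgEpiSC. NR5A2, TFCP2L1 and ZFP42 lie inside the cloud, with 69.3%, 25.4% and 21.0% of all genes at a lower log2 fold change.

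The calls depended on how the difference in enrichment between the types was handled. With islands enriched at least 2-fold, 0 of the 4 were higher in pgEpiSC and 2 in pEF, TBX3 and TFCP2L1, where 7.06% and 16.5% of all genes were called. The median over all genes was then -0.28. On values centred on the median gene of each library it was -0.12, and again 0 were higher in pgEpiSC and 2 in pEF, now TBX3 and ZFP42 (a log2 fold change of -1.09, adjusted p = 0.0482), against 22.8% and 24.6% of genes. Over all genes the split of calls was 5196 in pgEpiSC to 1773 in pEF as reported, 1150 to 2692 at 2-fold enrichment and 3583 to 3853 on centred values. Centred values were 0.52 for NR5A2 and -0.90 for TFCP2L1, neither past the threshold. TBX3 was below 0 under each of 12 alternatives, from -6.57 to -3.76. It was called in pEF under each that kept all 4 libraries, with adjusted p from 0.00116 to 0.00812 by limma. With 0 kb in both pgEpiSC libraries, stricter islands could only keep them at 0. Several of these settings gave the same -4.31, so the number of alternatives overstates how far the call was challenged. By reads, the regions of NR5A2 and ZFP42 in the windows gave 0 calls of 2, where 22.6% of regions shared by all 4 libraries were higher in pgEpiSC and 23.3% in pEF. TBX3 and TFCP2L1 had no such region.

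**Figure D4:**
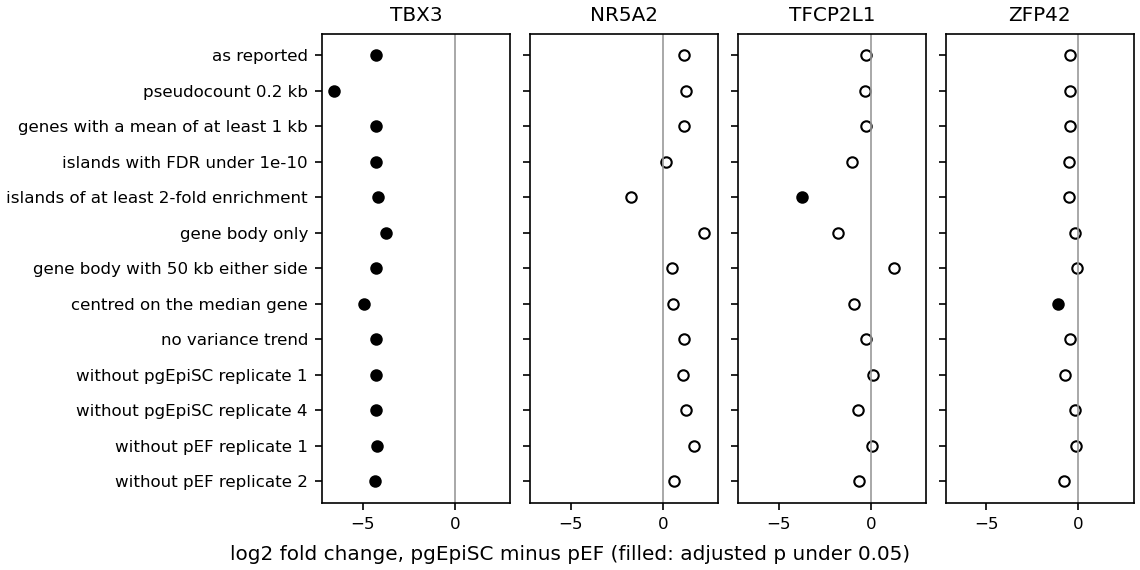
Log2 fold change of acetylated length (pgEpiSC minus pEF) for each gene as reported and under 12 other settings, 1 row each; filled points have an adjusted p under 0.05. TBX3 is below 0 and filled in every row, while NR5A2 turns below 0 with islands enriched at least 2-fold and TFCP2L1 moves to both sides of 0.

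Of 16 other genes of the naive network, 9 had more length in pgEpiSC, 1 had more in pEF and 6 were not past the threshold, with a median log2 fold change of 0.95 against 0.46 over all genes, beside 31.9% and 10.9% of all genes called. On centred values 7 and 1 of 14 were called, beside 22.8% and 24.6% of genes, and at 2-fold enrichment 2 and 1, beside 7.06% and 16.5%. PRDM14, a repressor of differentiation, had 38.6 ± 1.99 kb in pgEpiSC while pEF had no island there (a log2 fold change of 5.30, adjusted p = 0.0029), also when only islands enriched at least 2-fold were used (5.22). The germ cell and naive markers TFAP2C and DPPA3 had 20.1 ± 8.77 kb and 16.5 ± 4.59 kb in pgEpiSC, compared with 0 kb in pEF, but neither passed at 2-fold enrichment (0.34, adjusted p = 0.453, and 0, adjusted p = 1). ESRRB, an orphan nuclear receptor, had 98.8 and 95.5 kb against 2.4 kb in each pEF library, but did not pass at 2-fold enrichment (1.37, adjusted p = 0.684). KLF2, a Krüppel-like factor also known from endothelium, shared the direction of TBX3, with 7.8 and 7.6 kb in pgEpiSC, compared with 16.6 and 18.2 kb in pEF (a log2 fold change of -1.08, adjusted p = 0.0128). NR0B1 and DPPA5 had no island in any library.

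Of 15 genes of the formative and primed states, 11 were higher in pgEpiSC and 0 in pEF, beside 31.9% and 10.9% of all genes, with a median log2 fold change of 2.30. On centred values 9 were higher in pgEpiSC and 1, the WNT modulator gene SFRP2, in pEF, beside 22.8% and 24.6% of genes, and at 2-fold enrichment 4 and 0, beside 7.06% and 16.5%. OTX2, a formative regulator, had 29.4 and 29.2 kb in pgEpiSC, compared with 0 kb in pEF (adjusted p = 0.0029). POU3F1, also called OCT6, had 10.3 ± 4.05 kb and 0 kb (adjusted p = 0.00940) but did not pass at 2-fold enrichment (1.14, adjusted p = 0.453), and the DNA methyltransferase gene DNMT3A had 117 ± 5.52 kb and 12.4 ± 3.96 kb (adjusted p = 0.00787).

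**Figure D5:**
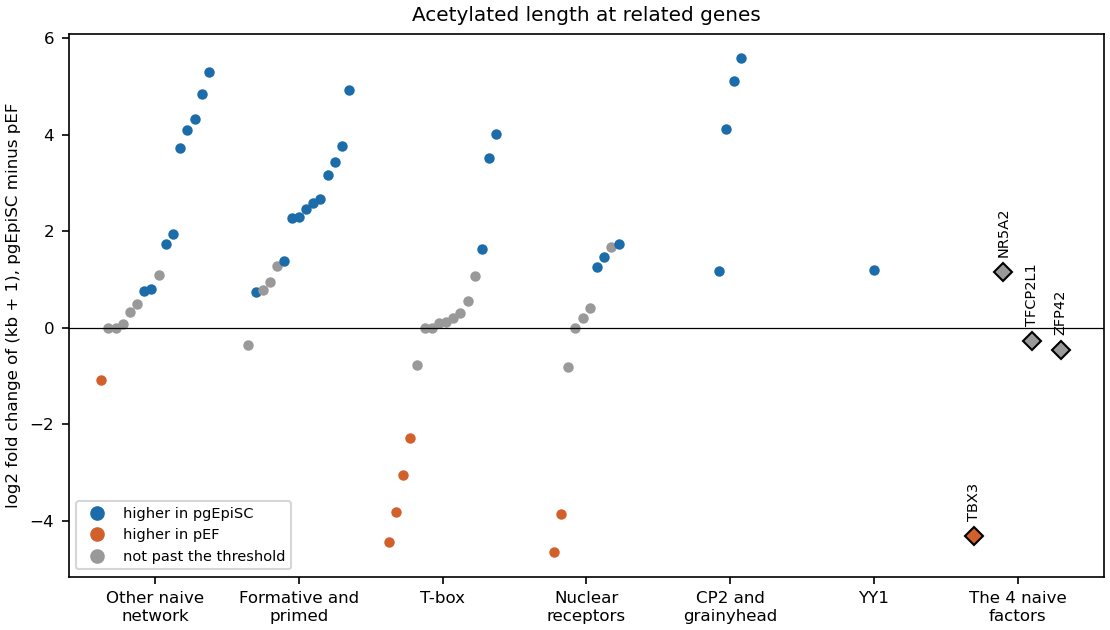
Log2 fold change of acetylated length (pgEpiSC minus pEF) for the genes of each list (circles, ordered by value) and the 4 naive factors (diamonds), coloured by the limma call at an adjusted p under 0.05. All 15 formative and primed genes but SFRP2 lie above 0, T-box genes lie on both sides, and TBX3 is near the lowest T-box genes.

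The genes most like each of the 4 in their acetylated lengths over the 4 libraries, at least 1 Mb away, were found by the Euclidean distance of log2(kb + 1). For TBX3 they were ITPRIPL2 (distance 0.0829), C14H10orf128 (0.0969) and CNTF (0.185), all at 0 kb in both pgEpiSC libraries. For NR5A2 they were ACADL (0.191), PGM3 (0.273) and P3H3 (0.310). BUD13 (0.179), MAPK12 (0.255) and AOX2 (0.257) were closest to TFCP2L1, and NR1H3 (0.293), MARCH7 (0.302) and ZDHHC2 (0.319) to ZFP42. The likeness is over 4 libraries and the length measure alone.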

How the data were processed

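The members and the gene lists were chosen with earlier results of these data known. Per the labels, chromatin was sonicated to 200 to 500 bp and sequenced in 150 bp paired-end reads. BWA 0.7.15, SAMtools 0.1.19 and SICER 1.1 are named per the submitters' processing notes; the build, duplicate removal and mapping filters are not given in the sources used here. In the deposited lists, which have no header, whole-number count columns hold ChIP and input reads per island, p-value columns an island p-value and FDR (up to 1.00, so no FDR limit was applied), and a fold column, also deposited, gives ChIP reads as a ratio to scaled input. Islands are per library, on a 200 bp grid, and input reads sit inside them.

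Genes came from the RefSeq table of Sscrofa11.1: those coding for protein and carrying a symbol, on the autosomes and X. With it, 70.0% to 74.8% of genes had an end in an island, and 27.5% to 40.9% at points 20 kb outward. Acetylated length was tested by limma 3.58.1 (trend, 2 residual degrees of freedom) on log2(kb + 1), and ChIP reads in 20796 regions called in all 4 libraries, merged at 1 bp of overlap, by edgeR 4.0.16 (TMM, quasi-likelihood). Both were two-sided with Benjamini-Hochberg adjustment and a threshold of 0.05, and were tested on simulated data. Named were the 4 genes, the nearest 2 genes on each side, the 3 most alike, and up to 4 called genes per list; others were named after their values were seen, and 1 result is not reported here. R 4.3.3, DESeq2 1.42.0 and Python 3.11.15 were used. Promoter sequences and motifs were not analysed here. Counting error limits single islands; whole library depth is unknown beyond the labels' means.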

Additional observations from a re-analysis of the deposited data

How the results depend on the processing

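Each test rests on 2 libraries per type, and islands under 2-fold enrichment limit what length can show in pgEpiSC. No paired analysis was possible because the 2 types share only replicate number 1. Of 48 alternative values for the 4 genes, 42 kept their direction and side of the threshold, 0 lost a call, 2 gained one and 4 reversed; the cause was not tested. The gains were TFCP2L1 at 2-fold enrichment (-3.71) and ZFP42 on centred values (-1.09). The reversals were NR5A2 at 2-fold enrichment (-1.75) and TFCP2L1 with 50 kb flanks (1.27), without pgEpiSC 1 (0.14) and without pEF 1 (0.09). The read test at ZFP42 reversed without pEF 1 (0.17) and passed without pEF 2 (-0.66). Leaving out each library in turn, the log2 fold change ranged from -4.36 to -4.25 at TBX3, 0.60 to 1.71 at NR5A2, -0.67 to 0.14 at TFCP2L1 and -0.79 to -0.13 at ZFP42. Over all genes, 5196 were called in pgEpiSC and 1773 in pEF, but 1150 and 2692 at 2-fold enrichment, 3583 and 3853 on centred values, and 1684 to 2188 and 548 to 829 with a library left out, where a lone library is assumed to vary like the others. Over shared regions, 4705 and 4854 were called, but 25494 and 17738 of 102641 regions called in at least 1 library, 2414 and 2291 at 2-fold enrichment, and 1905 to 5837 and 2132 to 5708 with a library left out.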
